A study of Mus musculus with 7 samples.

Results

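The respiratory chain genes described here are 97 of the 18194 genes tested on 7 arrays of whole testis: 3 of Phf13 knockout and 4 of wild type mice, all aged 15 to 20 weeks. Members were taken by symbol: genes starting with Nduf, Uqcr or Atp5, with Sdh followed by a, b, c or d, or with Cox followed by 4 to 8, and Cycs, Cyct and Cyc1, each from probe sets with 1 symbol. They comprised 34 genes of complex I, 4 of complex II, 9 of complex III, 2 cytochromes c, 19 of complex IV, 17 of complex V and 12 assembly factors. Ndufa4 and Ndufa4l2 were counted with complex IV, to which the Ndufa4 protein belongs. The sources used here give neither the strain nor how the Phf13 allele was made. Since no label states that each array is a different animal, the p-values rest on the spread between arrays, part of which may be technical.

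Complexes I to IV pass electrons from NADH and succinate to oxygen in the inner mitochondrial membrane and complex V makes ATP from the proton gradient that this builds. Cytochrome c carries electrons from complex III to complex IV. Male germ cells are known for having their own forms of some of these proteins, among them testis cytochrome c (Cyct) and the complex IV subunits Cox6b2, Cox7b2 and Cox8c, whose counterparts Cycs, Cox6b1, Cox7b and Cox8a are used in most cells. Cox7b was not analysed here. Tissue-restricted forms of other subunits are known from heart and skeletal muscle (Cox6a2, Cox7a1 and Cox8b), from lung (Cox4i2) and from cells at low oxygen (Ndufa4l2).

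Most respiratory chain genes had high signals that differed little between genotypes. Their median log2 signal over all arrays was 10.17, against 6.33 for all genes tested, and the median member stood at percentile 93.9. Log2 signals are probe set values, so a level of 1 gene is not set against that of another below. Mean signals of 5 members (Ndufb4, Cox7a1, Cox4i2, Cox8b and Ndufaf6) were below the lowest array median of 5.01, and these were not shown to lie above background. Phf13 itself had log2 signals of 6.04, 5.83 and 5.71 in knockout arrays and 8.66, 8.64, 8.73 and 8.54 in wild type arrays; the sources used here do not say whether its probe set lies in the deleted part.

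Of the 97 genes, 9 rose, 4 fell and 84 did not pass limma's adjusted p of 0.05, where rose and fell are used only for genes past that threshold. This is 13.4% of members, beside 16.1% of all genes tested, of which 9.07% rose and 7.05% fell. For 25 members the 2 genotypes had no overlap between arrays, beside 28.0% of all genes. The share of members that changed was thus near that of the whole array. The median log2 fold change of members (knockout minus wild type) was 0.02, beside −0.045 for all genes, and with each array centred on its median it was −0.01. For 51 members the log2 fold change was smaller than 0.1 in either direction. All 13 calls needed knockout 3: without it limma called 0 members, and 175 of all genes in place of 2934; with all arrays 24 members had an unadjusted p under 0.05. Without wild type 1 there was 1 rise and 0 falls, without wild type 2 there were 2 rises and 0 falls, without knockout 1 there were 3 rises and 0 falls, without knockout 2 there were 3 rises and 4 falls, and without wild type 3 there were 9 rises and 2 falls. All 13 kept the sign of their change in each of these runs.

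**Figure D1:**
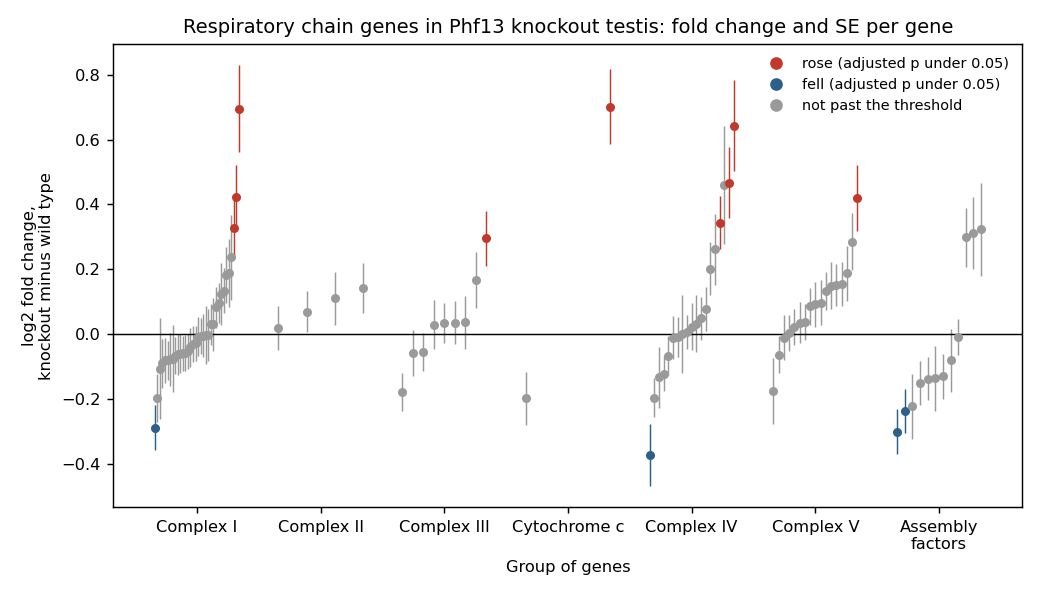
Log2 fold change (knockout minus wild type, vertical axis) of each of the 97 genes, grouped by complex along the horizontal axis and ordered by size within each group; points are limma estimates and bars their standard errors. Red points are the 9 genes that rose, blue points the 4 that fell, and grey points the other 84; 51 genes lie within 0.1 of 0.

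Of the 2 genes for the mobile carrier cytochrome c, Cycs rose and Cyct did not pass. Cycs, the cytochrome c of most cells and also a trigger of apoptosis when released from mitochondria, had log2 signals of 11.15, 11.08 and 11.24 in knockout arrays, against 10.32, 10.22, 10.60 and 10.68 in wild type arrays. All 3 knockout arrays lay above all 4 wild type arrays. It rose by 0.70 (SE 0.12, limma adjusted p = 0.0129), which is 1.63-fold. Cycs still passed in 6 of the 7 runs that left out 1 array; without knockout 3 its log2 fold change was 0.66 and its adjusted p 0.0555. Its 2 other bright probe sets gave log2 fold changes of 0.75 each. Cyct, the form made in male germ cells from the pachytene stage on, had log2 signals of 10.03, 10.22 and 10.20 in knockout arrays, against 10.27, 10.28, 10.33 and 10.51 in wild type arrays. The Cyct groups did not overlap either, in the other direction, but its log2 fold change of −0.20 (SE 0.08) did not pass (limma adjusted p = 0.133).

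The promoters of these genes and of the complex IV pair described next are shown because the estimates of the genes in each pair went in opposite directions, although no pair passed the adjusted test given below. Each runs from 250 bases before to 50 after the start of transcription, 5′ to 3′, from RefSeq's GRCm38.p6 annotation. Cycs lies on chromosome 6 (chr6:50566520-50566819), Cyct on chromosome 2 (chr2:76360404-76360703), and Cox6b1 (chr7:30626065-30626364) and Cox6b2 (chr7:4753045-4753344) on chromosome 7, all on the minus strand. Capitals mark matches on either strand to 3 motifs, which were chosen with the Cycs sequence in view: TGACGTCA, the cAMP response element; GCATGCGC, the core of the site of nuclear respiratory factor NRF1; and CCGGAAG, the core of sites of Ets factors such as Gabpa.
Cycs: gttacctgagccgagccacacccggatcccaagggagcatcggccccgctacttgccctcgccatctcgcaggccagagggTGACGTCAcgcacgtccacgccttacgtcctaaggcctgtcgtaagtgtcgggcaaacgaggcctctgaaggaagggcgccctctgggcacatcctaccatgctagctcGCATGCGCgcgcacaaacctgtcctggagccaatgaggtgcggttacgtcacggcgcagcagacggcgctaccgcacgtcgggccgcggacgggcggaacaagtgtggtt
Cyct: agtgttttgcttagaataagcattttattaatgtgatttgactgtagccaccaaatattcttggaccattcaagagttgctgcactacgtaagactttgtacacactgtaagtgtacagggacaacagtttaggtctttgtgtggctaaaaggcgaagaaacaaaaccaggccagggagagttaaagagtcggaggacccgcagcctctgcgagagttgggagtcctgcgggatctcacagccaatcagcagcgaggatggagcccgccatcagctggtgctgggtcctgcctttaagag
Cox6b1: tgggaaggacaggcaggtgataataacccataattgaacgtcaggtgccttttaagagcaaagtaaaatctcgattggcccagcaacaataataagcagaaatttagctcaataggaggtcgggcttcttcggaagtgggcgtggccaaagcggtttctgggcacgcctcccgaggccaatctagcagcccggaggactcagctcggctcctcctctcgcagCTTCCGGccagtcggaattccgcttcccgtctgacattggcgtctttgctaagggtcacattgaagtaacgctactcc
Cox6b2: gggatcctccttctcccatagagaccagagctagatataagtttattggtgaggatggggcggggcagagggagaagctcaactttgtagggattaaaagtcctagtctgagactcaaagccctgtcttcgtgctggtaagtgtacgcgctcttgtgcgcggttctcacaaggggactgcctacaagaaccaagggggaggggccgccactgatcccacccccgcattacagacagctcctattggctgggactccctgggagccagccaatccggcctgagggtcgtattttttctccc

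The Cycs window held TGACGTCA starting at position −169 and GCATGCGC at −60, and the Cox6b1 window held CCGGAAG at −28 on its other strand, with positions counted from the start site. The Cyct and Cox6b2 windows held none of the 3 motifs. Over 32851 promoters of this length, TGACGTCA was in 1.79%, GCATGCGC in 2.71% and CCGGAAG in 8.86%. Of 85 windows that belonged to 80 of the respiratory chain genes, 4 held TGACGTCA, 12 held GCATGCGC and 22 held CCGGAAG. Besides Cycs, the genes with TGACGTCA were Ndufa10, which rose, and Ndufb2 and Uqcrfs1, which did not pass. Of the genes with GCATGCGC, Cycs rose, Ndufaf5 fell and the others did not pass. Of those with CCGGAAG, Cox6b1 and Cox8a rose and the others did not pass. Whether any motif goes with a change was not tested. Matches to overlapping letters on both strands were counted once per promoter, and a match is a stretch of letters, not a shown binding site.

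In complex I, the NADH dehydrogenase, 4 of 34 genes passed the threshold (11.8%, beside 16.1% of all genes). These were 4 of 28 accessory subunits (14.3%), while 0 of 6 core subunits passed. The 6 core genes are too few to tell 0 from the share over all genes. Ndufb11, an X-linked accessory subunit of the membrane arm, had log2 signals of 9.37, 9.36 and 9.59 in knockout arrays, against 8.52, 8.56, 8.85 and 9.05 in wild type arrays. It rose by 0.70 (SE 0.13, limma adjusted p = 0.0168) and still passed in 5 of those 7 runs; the adjusted p was 0.0507 without wild type 1 and 0.0652 without knockout 3. All 3 of its probe sets passed when every probe set was tested, with log2 fold changes of 0.55, 0.67 and 0.70. Ndufa1, another X-linked accessory subunit, had signals of 10.56, 10.64 and 10.71 in knockout arrays, against 10.09, 10.04, 10.35 and 10.38 in wild type arrays, and rose by 0.42 (SE 0.10, limma adjusted p = 0.0270). In both genes the knockout arrays lay above every wild type array, and wild type 3 and 4 lay above wild type 1 and 2. These were the 2 measured members on the X chromosome, a grouping made after their values were seen; of all 617 X-linked genes tested, 194 rose and 0 fell at the same limma threshold (31.4%), and 289 had an unadjusted p under 0.05.

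Ndufa10, an accessory subunit related to nucleoside kinases, had signals of 9.79, 9.49 and 9.75 in knockout arrays, against 9.26, 9.30, 9.40 and 9.44 in wild type arrays. It rose by 0.33 (SE 0.09, limma adjusted p = 0.0411), but the mean of its probe sets moved by 0.13 (adjusted p = 0.130), since a dimmer one had a log2 fold change of −0.07. Ndufb1, a small membrane-arm subunit, went the other way, with 9.44, 9.60 and 9.42 in knockout arrays, against 9.81, 9.84, 9.72 and 9.73 in wild type arrays. It fell by 0.29 (SE 0.07, limma adjusted p = 0.0287), and every knockout array lay below every wild type array. With 1 array left out, Ndufa1 still passed in 2, Ndufb1 in 3 and Ndufa10 in 1 of 7 runs.

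None of the 6 measured core subunits of complex I, the part of the enzyme that carries out electron transfer, passed. Ndufv1, which takes electrons from NADH, had signals of 9.94, 10.01 and 10.04 in knockout arrays, against 10.04, 10.09, 10.05 and 10.04 in wild type arrays, a log2 fold change of −0.06 (SE 0.06). Ndufs1, the largest iron-sulphur subunit, averaged 9.42 ± 0.05 in the 3 knockout arrays and 9.49 ± 0.03 in the 4 wild type arrays (SD), with a log2 fold change of −0.07 (SE 0.06). The core subunits as a group had log2 fold changes between −0.075 and 0.03. Ndufb2 (−0.20, SE 0.07) and Ndufc2 (0.18, SE 0.09), accessory subunits, did not pass. The 30 complex I genes that did not pass ranged from −0.20 for Ndufb2 to 0.24 for the dim Ndufb4, and 23 of them were within 0.1 of 0. The median of complex I was −0.02, and 0.02 after quantile normalization.

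Complex II, succinate dehydrogenase, also a tricarboxylic acid cycle enzyme, had no gene past the threshold. Sdha, the flavoprotein, averaged 10.14 ± 0.09 in the 3 knockout arrays and 10.13 ± 0.07 in the 4 wild type arrays (SD), and its log2 fold change was 0.02 (SE 0.07). Sdhb, the iron-sulphur subunit, had signals of 10.47, 10.49 and 10.44 in knockout arrays, against 10.31, 10.36, 10.45 and 10.47 in wild type arrays, with a log2 fold change of 0.07 (SE 0.06). The membrane anchors Sdhc (0.11, SE 0.08) and Sdhd (0.14, SE 0.08) did not pass. Groups overlapped for all 4 genes.

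In complex III, the cytochrome bc1 complex, Cyc1 was the gene that passed. Cyc1, cytochrome c1, which hands electrons to cytochrome c, had signals of 9.62, 9.67 and 9.82 in knockout arrays, against 9.31, 9.30, 9.52 and 9.50 in wild type arrays. It rose by 0.30 (SE 0.08, limma adjusted p = 0.0476), close to the threshold, and did not pass with the arrays centred on their medians (adjusted p = 0.0573). With 1 array left out it passed in 1 of 7 runs. Uqcrq, a small accessory subunit, had signals of 10.65, 10.79 and 10.77 in knockout arrays, against 10.92, 10.92, 10.92 and 10.90 in wild type arrays. Its groups did not overlap, and its log2 fold change of −0.18 (SE 0.06) missed the threshold (limma adjusted p = 0.0744). Uqcrfs1, the Rieske iron-sulphur protein (−0.06, SE 0.06), the core protein Uqcrc1 (−0.06, SE 0.07), Uqcrh (0.04, SE 0.07), Uqcr10 (0.04, SE 0.06) and Uqcr11 (0.17, SE 0.09) did not pass. The probe sets of Uqcr10 disagreed: beside the brightest, at 0.04, the other 2 had log2 fold changes of −0.49 (SE 0.12, mean signal 8.46) and −0.25 (SE 0.07, mean signal 8.54), and the first of these passed when every probe set was tested (limma adjusted p = 0.0334).

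**Figure D2:**
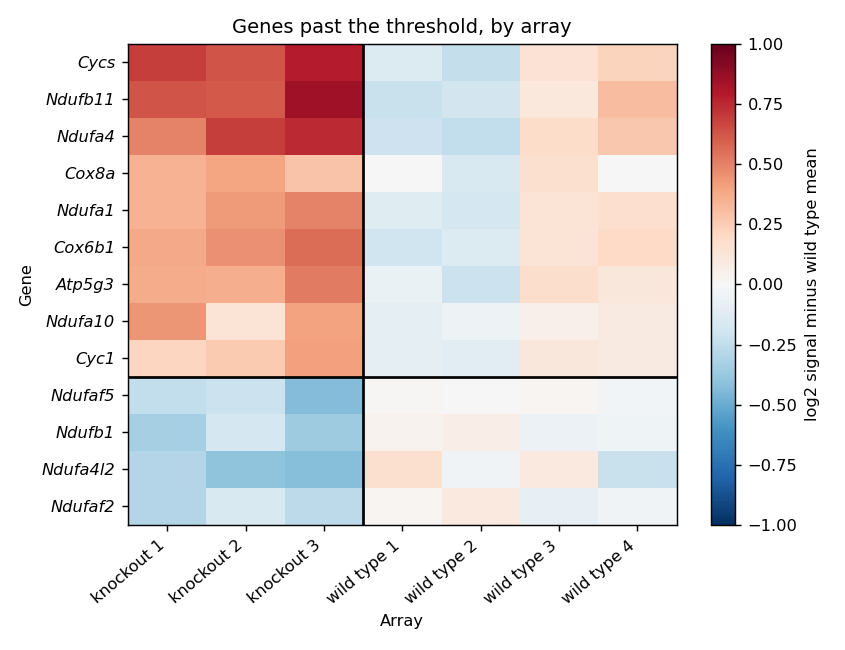
Log2 signal of the 13 genes past the threshold (rows) in each array (columns), as the difference from the gene's wild type mean, in colour from −1 to 1. The 9 genes above the horizontal line rose and the 4 below it fell; no wild type array reaches the knockout arrays of the same gene, and in most of the upper rows wild type 3 and 4 are redder than wild type 1 and 2.

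Complex IV, cytochrome c oxidase, held changes in both directions among its tissue-specific subunits and their counterparts. Cox6b1, a subunit on the side of the enzyme where cytochrome c docks, had signals of 9.71, 9.79 and 9.89 in knockout arrays, against 9.13, 9.19, 9.47 and 9.53 in wild type arrays. It rose by 0.47 (SE 0.11, limma adjusted p = 0.0270), and its second probe set gave 0.45. Cox6b2, its testis form, had signals of 11.63, 11.68 and 11.57 in knockout arrays, against 11.88, 11.85, 11.79 and 11.77 in wild type arrays. Every knockout array of Cox6b2 lay below every wild type array. Its log2 fold change of −0.20 (SE 0.06) did not pass (limma adjusted p = 0.0601), and passed with the arrays centred on their medians, a change of −0.23 (adjusted p = 0.0463).

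Cox8a, the small hydrophobic subunit of most tissues, had signals of 8.71, 8.76 and 8.65 in knockout arrays, against 8.36, 8.21, 8.52 and 8.36 in wild type arrays. It rose by 0.34 (SE 0.08, limma adjusted p = 0.0264), and its other bright probe set gave 0.47. Cox8c, the testis form, averaged 11.67 ± 0.04 in the 3 knockout arrays and 11.73 ± 0.05 in the 4 wild type arrays (SD), with overlapping groups. Its log2 fold change was −0.07 (SE 0.06). Cox7b2, the testis form of Cox7b, had signals of 10.83, 11.15 and 10.93 in knockout arrays, against 10.95, 11.12, 11.13 and 11.21 in wild type arrays, which overlap, and a log2 fold change of −0.13 (SE 0.09). Thus all 3 measured counterparts of testis forms rose, beside 9.07% of all genes. Among the 4 other counterparts, those of forms from other tissues, 1 rose. The 4 testis forms did not pass and had log2 fold changes between −0.20 and −0.07, negative with quantile normalization and with median centring too. Of all 18194 genes, 10898 had a negative one, 11171 after quantile normalization and 11964 after median centring.

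Ndufa4, a late-joining subunit of complex IV, had signals of 8.53, 8.73 and 8.78 in knockout arrays, against 7.83, 7.79, 8.22 and 8.31 in wild type arrays. It rose by 0.64 (SE 0.14, limma adjusted p = 0.0227), 1.56-fold. Ndufa4l2, its relative that is known to be induced at low oxygen, had signals of 8.16, 8.05 and 8.03 in knockout arrays, against 8.61, 8.42, 8.55 and 8.23 in wild type arrays. It fell by 0.37 (SE 0.10, limma adjusted p = 0.0354), and the groups did not overlap. With 1 array left out, Ndufa4 and Cox6b1 each passed in 2 of 7 runs, and Ndufa4l2 and Cox8a each in 1.

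None of the other subunits of complex IV passed. Cox5a, an early-joining subunit, averaged 11.86 ± 0.01 in the 3 knockout arrays and 11.85 ± 0.03 in the 4 wild type arrays (SD), a log2 fold change of 0.01 (SE 0.05). Cox4i1, the main regulatory subunit, had a log2 fold change of −0.01 (SE 0.06), Cox6c of 0.05 (SE 0.07), Cox5b of 0.08 (SE 0.07) and Cox7a2l, which helps to join complexes III and IV, of 0.02 (SE 0.07). Cox6a1 was higher in every knockout array (12.17 to 12.30) than in the wild type arrays (11.92 to 12.15), and Cox7a2 was lower (12.11 to 12.16, against 12.23 to 12.29), but neither log2 fold change, 0.20 (SE 0.08) and −0.12 (SE 0.05), passed (limma adjusted p = 0.124 and 0.155). The muscle and lung forms Cox6a2 (−0.01), Cox8b (−0.00083) and Cox4i2 (0.03) did not pass, nor did Cox7a1 (0.46, SE 0.18) and the single-symbol probe set for Cox7c (0.26, SE 0.11). Mean signals of these 5 were between 4.39 and 5.58, near the array medians.

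**Figure D3:**
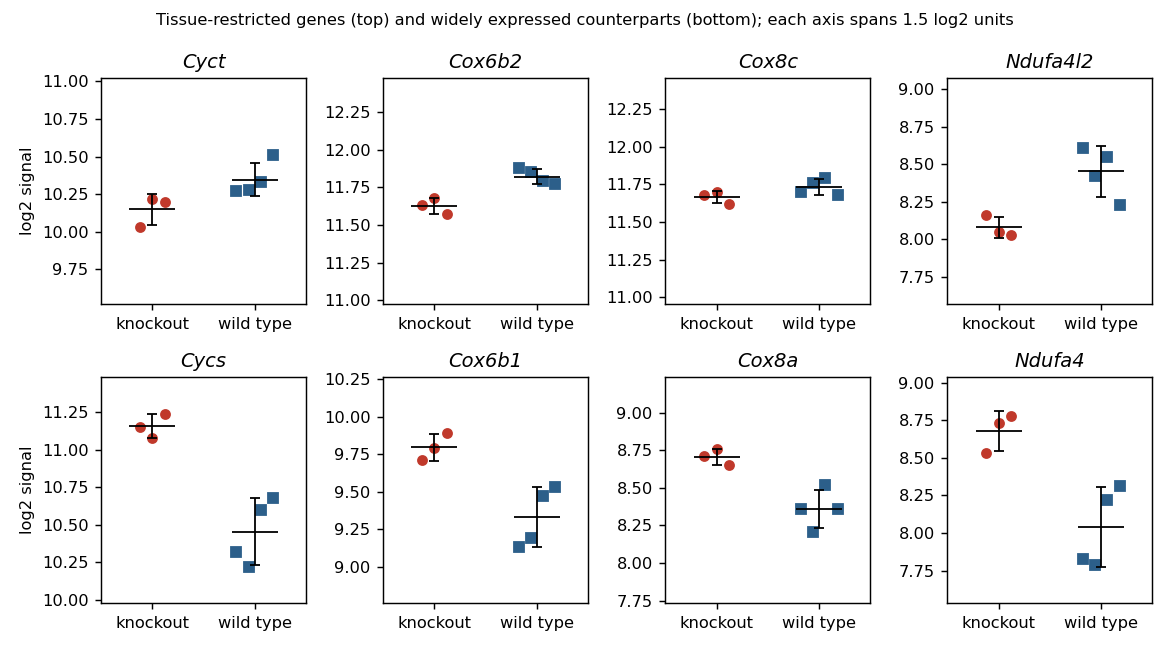
Log2 signal of each array for Cyct, Cox6b2, Cox8c and Ndufa4l2 (top) and for their widely expressed counterparts Cycs, Cox6b1, Cox8a and Ndufa4 (bottom), knockout as red circles and wild type as blue squares, with mean and SD in black. The bottom row is higher in all 3 knockout arrays than in any wild type array; in the top row the knockout arrays lie below the wild type arrays for 3 of the 4 genes, and overlap them for Cox8c.

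Whether the 2 genes of a pair differed in their genotype effect was tested directly, as the log2 signal of the restricted gene minus that of its counterpart in each array. Of 9 pairs listed, 8 could be measured, and Cox8a is in 2 of them. The Cyct minus Cycs difference was −1.12, −0.86 and −1.04 in knockout arrays, against −0.05, 0.06, −0.27 and −0.17 in wild type arrays, a shift of −0.90. Only the shift between genotypes can be read, because the difference itself depends on the probes. The exact permutation p (two-sided) was 0.0286, the lowest possible with 35 divisions of 7 arrays, and 0.0762 after adjustment over the 8 pairs.

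Cox6b2 minus Cox6b1 shifted by −0.66, with 1.92, 1.89 and 1.68 in knockout arrays, against 2.75, 2.66, 2.32 and 2.24 in wild type arrays, and Cox8c minus Cox8a by −0.41. Both had the same exact permutation p of 0.0286 (0.0762 adjusted). In all 3 testis pairs no knockout array reached the wild type arrays. Groups did not overlap for Ndufa4l2 minus Ndufa4 and Cox7a1 minus Cox7a2 either, which are not testis pairs. Ndufa4l2 minus Ndufa4 shifted by −1.02, the largest shift of the 8, with −0.37, −0.68 and −0.75 in knockout arrays and 0.78, 0.63, 0.33 and −0.08 in wild type arrays (exact permutation p = 0.0571, 0.0914 adjusted). Cox7a1 minus Cox7a2 moved the other way, by 0.58 (exact permutation p = 0.0571, 0.0914 adjusted), with the dim Cox7a1 in it. The pairs Cox6a2 and Cox6a1 (−0.21, exact permutation p = 0.257), Cox8b and Cox8a (−0.35, exact permutation p = 0.143) and Cox4i2 and Cox4i1 (0.04, exact permutation p = 0.771) had overlapping groups. No pair passed after adjustment, and the smallest adjusted p was 0.0762. With 7 arrays a pair could pass only if most of the 8 had the lowest possible p, so not passing says little about any pair.

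**Figure D4:**
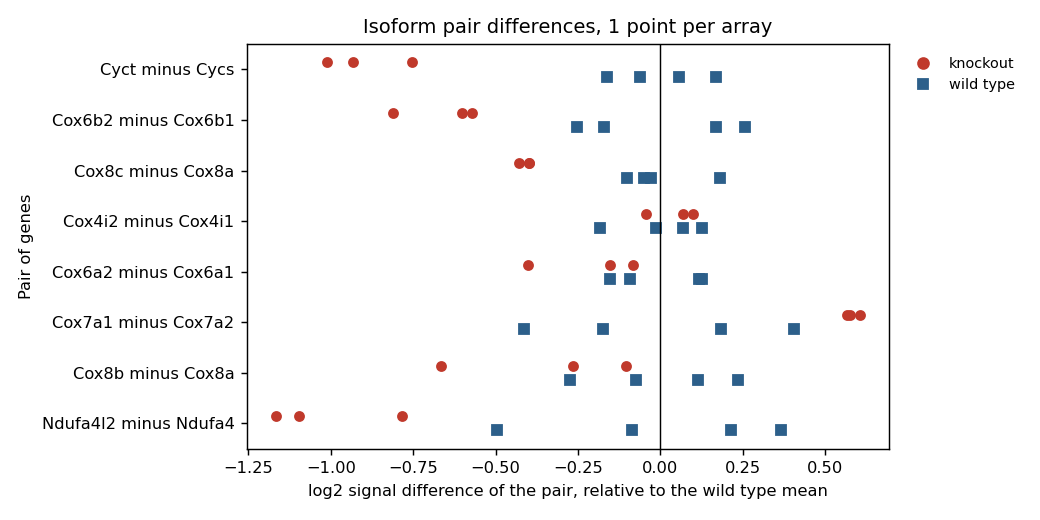
Log2 signal of the restricted gene minus that of its counterpart, relative to the wild type mean of the pair (horizontal axis), 1 point per array, for 8 pairs (rows); knockout arrays are red circles above the blue squares of wild type arrays. In the upper 3 rows, the testis pairs, the knockout arrays lie to the left of all wild type arrays, with mean shifts of −0.90, −0.66 and −0.41. Knockout and wild type arrays are also apart for Ndufa4l2 minus Ndufa4, to the left, and Cox7a1 minus Cox7a2, to the right.

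Complex V, the ATP synthase, had 1 gene past the threshold. Atp5g3, which with Atp5g1 and Atp5g2 encodes the same subunit c of the rotor ring, had signals of 11.18, 11.17 and 11.33 in knockout arrays, against 10.74, 10.59, 10.98 and 10.92 in wild type arrays. It rose by 0.42 (SE 0.10, limma adjusted p = 0.0297), and passed in 2 of 7 runs with 1 array left out. Atp5g2 was higher in every knockout array too (8.63 to 8.88, against 8.32 to 8.56 in wild type), with a log2 fold change of 0.29 (SE 0.09) that missed the threshold (limma adjusted p = 0.0598) and passed after quantile normalization (0.30). Atp5g1 had 9.01 to 9.03 in knockout arrays, against 8.93 to 9.04 in wild type arrays, a log2 fold change of 0.04 (SE 0.06). The 3 genes for subunit c thus had different estimates, of which 1 passed.

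No gene of the catalytic head passed. Atp5b, the catalytic beta subunit, had signals of 11.39, 11.33 and 11.37 in knockout arrays, against 11.32, 11.22, 11.31 and 11.26 in wild type arrays, and Atp5a1, the alpha subunit, averaged 10.97 ± 0.06 in the 3 knockout arrays and 10.82 ± 0.07 in the 4 wild type arrays (SD). Their log2 fold changes were 0.09 (SE 0.06, limma adjusted p = 0.323) and 0.15 (SE 0.07, limma adjusted p = 0.144). Of the membrane and stalk subunits, Atp5l (0.15, SE 0.07), Atp5mpl (0.13, SE 0.06) and Atp5pb (0.19, SE 0.09) did not pass. In all, 14 of 17 complex V genes had a positive log2 fold change, with a median of 0.09, and 12 of 17 with a median of 0.06 after median centring. Of all 18194 genes tested, 7296 had a positive one (median −0.045), and 6230 after median centring (median −0.076).

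Assembly factors, which build the complexes without staying in them, included 2 of the 4 genes that fell. These are 16.7% of the 12 assembly factors, beside 16.1% of all genes called in either direction and 7.05% that fell. Ndufaf5, which hydroxylates a complex I subunit during assembly, had signals of 6.14, 6.17 and 5.95 in knockout arrays, against 6.40, 6.38, 6.41 and 6.36 in wild type arrays, and fell by 0.30 (SE 0.07, limma adjusted p = 0.0254). Ndufaf2, a late complex I assembly factor, had 8.67, 8.81 and 8.70 in knockout arrays, against 8.98, 9.06, 8.88 and 8.93 in wild type arrays. It fell by 0.24 (SE 0.07, limma adjusted p = 0.0497), at the edge of the threshold, and did not pass after quantile normalization (adjusted p = 0.0635). Groups did not overlap for either gene. With 1 array left out, Ndufaf5 passed in 3 and Ndufaf2 in 1 of 7 runs.

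Ndufaf4 (0.31, SE 0.11) and Ndufaf6 (0.30, SE 0.09), also complex I assembly factors, were higher in every knockout array and did not pass (limma adjusted p = 0.0892 and 0.0569). A dimmer probe set of Ndufaf4, with a mean signal of 5.09, had a log2 fold change of 0.52 (SE 0.09) and passed when every probe set was tested (limma adjusted p = 0.0160). It and the one of Uqcr10 were the 2 that passed among 85 other probe sets of members called as not past. Ndufaf4 and Ndufaf6 are 2 of 6 members on chromosome 4, which carries Phf13, and 0 of the 6 passed. The others were Ndufb6, Ndufs5, Sdhb and Uqcrh. Of the 12 assembly factors, 9 had a negative log2 fold change, with a median of −0.13. Of all 18194 genes tested, 10898 had a negative one, with a median of −0.045. Of 31 measured assembly factors with other symbols, 1 rose, 1 fell and 29 did not pass (6.45% called, beside 16.1% of all genes). Cox18, which inserts a complex IV subunit into the membrane, rose by 0.24 (SE 0.07, limma adjusted p = 0.0497). It passed in 0 of 7 runs with 1 array left out. Sco2, which delivers copper to complex IV, fell by 0.34 (SE 0.07, limma adjusted p = 0.0165).

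Genes that work beside the chain included further changes, in lists that were also chosen with earlier results of these data known. Of 8 measured carriers and pores of the mitochondrial membranes, 3 rose and 0 fell (37.5%, beside 16.1% of all genes): the ADP/ATP carrier genes Slc25a5, which is X-linked (0.82, SE 0.12, limma adjusted p = 0.0116) and Slc25a4 (0.61, SE 0.11, limma adjusted p = 0.0144) and the outer membrane pore Vdac1 (0.55, SE 0.10, limma adjusted p = 0.0146). Slc25a31, the ADP/ATP carrier of germ cells, had signals of 9.96, 10.01 and 9.98 in knockout arrays, against 9.95, 9.88, 9.89 and 10.09 in wild type arrays, a log2 fold change of 0.03 (SE 0.07). Of 17 genes of the tricarboxylic acid cycle and pyruvate dehydrogenase, 4 rose and 1 fell (29.4%), and those of smallest p were Pdha1 (0.57, SE 0.09), Suclg2 (0.54, SE 0.09) and the X-linked Idh3g (0.63, SE 0.11). Pdha1 is the X-linked gene of the pyruvate dehydrogenase alpha subunit, and its autosomal germ cell form Pdha2 had a log2 fold change of −0.11 (SE 0.06, limma adjusted p = 0.206). Slc25a31 and Pdha2 were picked after their values were seen.

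Regulators of mitochondrial biogenesis and the mitochondrial ribosome had few genes past the threshold. Of 15 biogenesis genes, 0 rose and 1 fell, Gabpb1, the partner of the Ets factor Gabpa (−0.34, SE 0.09, limma adjusted p = 0.0341), while the coactivator gene Ppargc1a (−0.49, SE 0.15) and the mitochondrial RNA polymerase gene Polrmt (−0.23, SE 0.07) did not pass (limma adjusted p = 0.0537 and 0.0707). Of 30 mitochondrial ribosomal protein genes, 0 rose and 2 fell, Mrpl37 (−0.25, SE 0.06) and Mrpl1 (−0.31, SE 0.08), and Mrps7 (0.22, SE 0.08) did not pass. These are 6.67% of each list, beside 16.1% of all genes. Of the 15 biogenesis genes, 10 had a negative log2 fold change, with a median of −0.17, beside −0.045 for all genes. Groups did not overlap in 6 of these 15 and in 4 of the 30 ribosomal protein genes, beside 28.0% of all genes. The median of the ribosomal list was −0.045.

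Most measured markers of somatic cells were higher in knockout arrays. Of 14 measured Sertoli cell markers 12 rose and 0 fell, and their mean log2 signal ran from 9.11 to 9.26 in knockout arrays, against 8.46 to 8.82 in wild type arrays. Of 8 Leydig cell markers 5 rose and 0 fell, with 9.28 to 9.70 in knockout and 8.38 to 8.92 in wild type arrays. Of 10 macrophage markers 6 rose and of 7 peritubular markers 3 rose, with ranges of 6.76 to 7.45 and 7.57 to 7.87 in knockout arrays, and 6.32 to 6.67 and 7.13 to 7.32 in wild type arrays. Spermatogonial markers ran from 6.57 to 6.83 in knockout and 6.31 to 6.54 in wild type arrays, with 3 of 8 past the threshold, all higher. These rises are 85.7% of Sertoli, 62.5% of Leydig, 60% of macrophage, 42.9% of peritubular and 37.5% of spermatogonial markers, beside 9.07% of all genes. Because the lists were chosen with earlier results of these data known, a share above that of all genes is not a test. Of the Sertoli markers that rose, 3 (Rhox5, Tmsb4x and Gata1) are X-linked, and 31.4% of all X-linked genes rose. Amh (−0.17), Des (−0.03) and Gfra1 (−0.10) had negative log2 fold changes and did not pass. Among these lists Cd68 and Gfra1 were dimmer than the lowest array median, and every other marker lay above it.

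Of 20 markers of later germ cell stages, 4 fell and 16 did not pass. The calls are 18.2% of spermatid and 22.2% of spermatocyte markers. Of all genes, 16.1% were called in either direction and 7.05% fell. Of 11 spermatid markers 0 rose and 2 fell, Crem and Tssk2, and the list's mean log2 signal was 12.06 to 12.09 in knockout arrays, against 12.11 to 12.25 in wild type arrays. Of 9 spermatocyte markers 0 rose and 2 fell, Aurkc (−0.76, SE 0.06) and Ccna1 (−0.37, SE 0.09), while Sycp3 (0.14) and Sycp1 (0.01) did not pass, with mean signals of 10.37 to 10.59 in knockout and 10.61 to 10.64 in wild type arrays. For comparison, Cycs, Cox6b1 and Cox8a together averaged 9.86 to 9.93 in knockout arrays, against 9.21 to 9.53 in wild type arrays, and the 4 testis forms 11.04 to 11.19 in knockout arrays, against 11.20 to 11.29 in wild type arrays. The part of these cell types in the changes above was not tested. In whole testis, fewer cells of a type and less RNA per cell cannot be told apart.

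**Figure D5:**
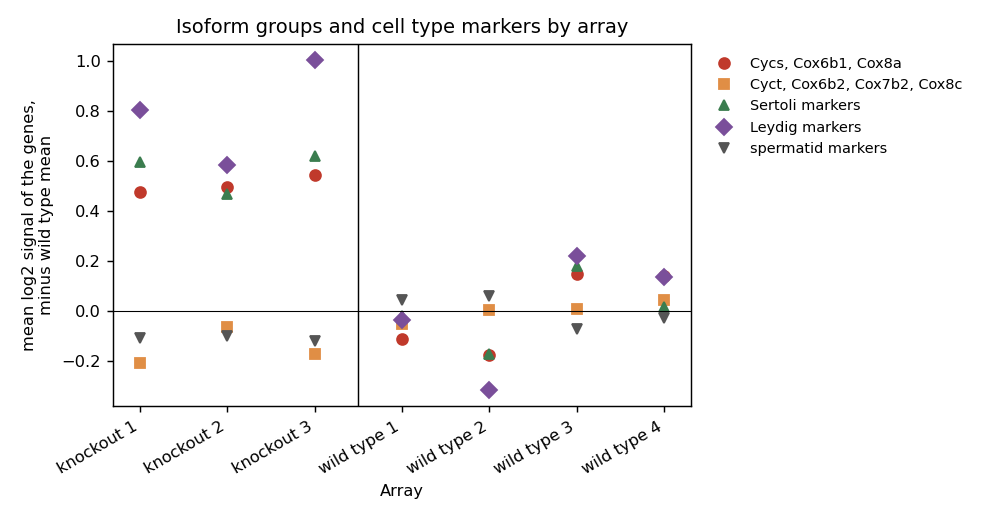
Mean log2 signal of each group of genes in each array, as the difference from the group's wild type mean (vertical axis); arrays run along the horizontal axis with knockout left of the line. Cycs, Cox6b1 and Cox8a (red) are higher in the knockout arrays, at 9.86 to 9.93 against 9.21 to 9.53 in wild type arrays, as are the Sertoli (green) and Leydig markers (purple), while the 4 testis forms (orange) and the spermatid markers (grey) lie below 0 there.

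Wild type arrays differed among themselves in the same genes. In 8 of the 9 members that rose, wild type 1 and 2 both lay below wild type 3 and 4, an order found after the values were seen. The same order held in 46 of the 84 members that did not pass, in 63.0% of all genes that rose and in 21.9% of all genes tested. It also held in 5 of 8 Leydig, 8 of 14 Sertoli, 6 of 10 macrophage, 3 of 7 peritubular and 6 of 8 spermatogonial markers. In the 9 spermatocyte markers it held in 2 and the reverse order in 1, and the reverse held in 9 of 11 spermatid markers. Outside the markers it held in 6 of 8 carriers and 17 of 30 mitochondrial ribosomal protein genes. It held in 7 of 17 tricarboxylic acid cycle genes, 10 of 31 other assembly factors and 5 of 15 biogenesis genes. Wild type 1, 2 and 4 lie in different title-number groups, the groups of arrays whose title numbers share their first 4 digits, and wild type 2 and 3 lie in the same one.

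Within these 3 title-number groups, taken as a possible batch, the changes kept their direction. Cycs was higher in knockout by 0.83, 0.67 and 0.56, Ndufb11 by 0.85, 0.66 and 0.54, Ndufa4 by 0.70, 0.73 and 0.47, and Cox6b1 by 0.58, 0.46 and 0.36. Ndufa4l2 had differences of −0.45, −0.44 and −0.20. The Cyct minus Cycs shift was −1.07, −0.76 and −0.87, and that of Cox6b2 minus Cox6b1 was −0.83, −0.60 and −0.56. With these groups entered as a block, 6 members rose and 2 fell (8.25% of members, beside 12.7% of all genes). Cox8a (adjusted p = 0.0523), Cyc1 (0.0532), Ndufa10 (0.0681), Ndufb1 (0.0532) and Ndufaf2 (0.0913) then did not pass limma's threshold. Of the calls in the other lists, the same block kept 10 of 12 for Sertoli, 4 of 5 for Leydig, 2 of 6 for macrophage and 3 of 3 for peritubular markers, 0 of 3 for spermatogonial, 2 of 2 for spermatocyte and 0 of 2 for spermatid markers. It kept 1 of 2 calls among the other assembly factors, where Cox18 was lost, 3 of 3 for carriers, 5 of 5 for the tricarboxylic acid cycle list, 0 of 1 for biogenesis and 2 of 2 for the mitochondrial ribosome.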

How the data were processed

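Total RNA from whole testis was extracted with Trizol, and biotinylated cRNA made from 2 ug of it was hybridised to Affymetrix arrays, per the labels' protocols. The authors' deposited values are log2 signals of 45101 probe sets in 7 arrays, from 1.59 to 13.92, with array medians of 5.01 to 5.08. The submitters' processing notes name Affymetrix Expression Console 1.4.1. The sources used here do not give how signals were summarised, background corrected or normalized. The log2 scale was inferred from the values. No normalization was added, and precision is limited by the number of arrays.

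Gene names came from the platform's annotation: 34958 probe sets had 1 symbol, 932 several and 9211 none or were not listed. Each of 18194 genes was represented by its brightest single-symbol probe set, by the mean of 7 arrays. Left out were 10 probe sets that members share with other genes; Ndufa11 and Ndufs6 were measured only by such probe sets. Chromosomes came from a RefSeq table of GRCm38.p6 through gene identifiers, for all 97 members. The array files name no assembly.

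The genotype comparison used limma 3.58.1 (R 4.3.3; lmFit, then eBayes; two-sided) over all genes, with Benjamini-Hochberg adjustment and a threshold of 0.05; fold changes are knockout minus wild type. Isoform pairs were compared by exact two-sided permutation over 35 divisions. The members, lists and pairs were chosen with earlier results of these data known. Named genes were the cytochromes c, Cyc1, both genes of each pair, up to 6 subunit genes per complex with the smallest unadjusted p, core catalytic subunits, 4 assembly factors and 3 genes of each other list; Atp5g1 and other genes beyond these were named after their values were seen. Replicate numbers were not taken as pairs, since the deviations of same-numbered arrays correlated at 0.182, 0.103 and −0.143. Within title-number groups, arrays of different genotype correlated at 0.103 to 0.319, and between title-number groups at −0.166 to 0.023. The main fit held no block, because the labels state none, so it does not allow for the title-number groups. Alternatives were median centring, quantile normalization, dropping the dimmest 30% of genes, the mean of all probe sets, testing all probe sets, trend and robust settings, array weights, both blocks and leaving out each array. Leaving out knockout 3 and wild type 4 together was chosen after seeing the data.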

Additional observations from a re-analysis of the deposited data

Results flagged for a closer look

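In the 4 wild type arrays, 4 of the 59 genes and pairs examined held an array far from the others by Dixon's ratio of gap to range; chance gives this in about 1 in 20 groups. Uqcrc1 was at 11.03 in wild type 4, below the other wild type arrays (ratio 0.952). The ratio was 1 for Uqcrq (10.90 in wild type 4), Cox6a2 (5.55 in wild type 3) and Cox7c (5.18 in wild type 2), where the other 3 arrays shared the same value to 2 decimals, so these gaps are small in size.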

How the results depend on the processing

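All 13 genes past the threshold kept the sign of their change in all 17 alternatives. The number that rose was 6 to 11, and so within 1.5 times 9, in every alternative with all 7 arrays. The number that fell was 7 with trend and robust settings, 1 with the replicate block and 2 with title-number groups in the model, against 4. Leaving out 1 array gave 0 to 9 rises and 0 to 4 falls. Without knockout 3 and wild type 4 together 0 members rose and 0 fell, and 4 of all genes passed; the cause was not tested, beyond fewer arrays. With the replicate block 9 members rose, and Cox8a, Ndufa10, Ndufaf2, Ndufaf5 and Ndufb1 did not pass; among markers it kept 0 of 3 spermatogonial and 0 of 2 spermatid calls. With 1 array left out, 20 members, none of them past the threshold, turned sign in some run, all with log2 fold changes of at most 0.11 in size with all arrays. Among the named genes, signs turned by a shift of over 1 SE for the log2 fold change of Cox5b (−0.00514) and Uqcr10 (−0.23) with the mean of all probe sets, Cox6a2 (0.057) without both of those arrays, and Cox8b (0.13 without knockout 2, and −0.12 to 0.13 over all single arrays left out); the cause was not tested. The 8 pair shifts kept their side of an exact permutation p of 0.05 with quantile normalization and with the mean of probe sets. Signals below the array median limit what can be said of Cox7a1, Cox4i2, Cox8b, Ndufb4 and Ndufaf6.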

Other observations

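Probe sets shared by several symbols, which entered no comparison, gave values for subunits otherwise unmeasured. A probe set shared by the complex I genes Ndufs6 and Ndufs6b had log2 signals of 9.60, 9.57 and 9.61 in knockout arrays, against 9.65, 9.71, 9.71 and 9.78 in wild type arrays. The groups did not overlap and the means differed by −0.12. The brighter of the probe sets shared by Ndufa11 and Ndufa11b had 9.50, 9.60 and 9.53 in knockout arrays and 9.45, 9.43, 9.63 and 9.54 in wild type arrays, which overlap. For Ndufb4, whose single-symbol probe set was dim, probe sets shared with Ndufb4b and Ndufb4c averaged 10.10 and 10.27 in knockout arrays, against 10.06 and 10.34 in wild type arrays.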
